A study of Mus musculus with 6 samples.

Results

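Of 8 genes of γδ T cells and innate-like T cells, 7 were lower in splenic CD4+Lrig1+ than in CD4+Lrig1- T cells whichever of the 2 sets of libraries was read. The genes described are the T cell receptor (TCR) γ genes *Tcrg-V4*, *Tcrg-C1*, *Tcrg-C2* and *Tcrg-C4*, the TCR δ genes *Trdc* and *Trdv4*, and the transcription factor genes *Sox13* and *Zbtb16*, which are 8 of the 45777 genes in the tables. They were chosen by name, and with the contrast of CD4+Lrig1+ and CD4+Lrig1- cells in these same libraries in view, so their values are given as a description with no test. Bulk RNA sequencing was performed on CD4+ T cells sorted by surface Lrig1, a transmembrane protein of the leucine-rich repeat family that the study examined as a marker of regulatory T cells. The spleens were from female mice of the inbred strain C57BL/6 at 7 weeks of age, with no treatment or genetic change named for either group. The labels list 3 samples of each group, and 4 libraries were used here, 2 of each group. They are held in 2 tables with 1 CD4+Lrig1+ and 1 CD4+Lrig1- library each, called set 1 and set 2. The study describes its quantitative data as coming from independent experiments or samples, but the labels do not tie the libraries to separate mice, so a p-value measures only the spread between these libraries, part of which may be technical.

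A γδ T cell carries a TCR made of a γ and a δ chain in place of the α and β chains of conventional CD4+ T cells. Each chain joins a variable (V) and a joining (J) segment to a constant (C) region, with a diversity segment added in δ. In the mouse the γ genes lie in clusters that each end in their own C gene. γδ T cells are mostly negative for CD4. Rearranged γ transcripts can also be present in αβ T cells, since the γ locus often rearranges before a thymocyte takes the αβ fate. The HMG box factor Sox13 is needed by a subset of IL-17 producing γδ T cells, and PLZF, the product of *Zbtb16*, directs the innate-like programme of natural killer T (NKT) cells, mucosal-associated invariant T (MAIT) cells and some γδ T cells.

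The libraries held from 44865070 to 59977951 estimated read counts on genes. Values are given as CPM (counts scaled to a common library size, with TMM factors) or, where genes are compared with each other, as FPKM (fragments scaled by transcript length and by the mapped fragments of the library). A count of 0 allows up to 3 counts, which is at most 0.0669 CPM by library totals in these libraries. *Lrig1* itself had 221 CPM in CD4+Lrig1+ and 75.4 CPM in CD4+Lrig1- cells of set 1, and 129 and 36.7 CPM in set 2. The defining TCR αβ and CD3 genes and *Cd4* were abundant in all libraries, with a summed level of 4041 and 4105 CPM in CD4+Lrig1- and CD4+Lrig1+ cells of set 1 and 7052 and 6928 CPM in set 2. *Cd3e* and *Cd3g*, for example, had log2 ratios between 0.03 and 0.10 in both sets.

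The γ constant genes are near-identical in part, which matters for their counts. Bases 101 to 230 of their first exon are printed because this stretch shows how little separates *Tcrg-C1* from *Tcrg-C2*. The bases are from GENCODE transcripts on GRCm38, at chr13:19214203-19214332 on the plus strand for *Tcrg-C1*, chr13:19307322-19307451 on the minus strand for *Tcrg-C2* and chr13:19344658-19344787 on the plus strand for *Tcrg-C4*. Capitals mark bases that differ from *Tcrg-C1* or, in the *Tcrg-C1* line, from *Tcrg-C2*.
Tcrg-C1: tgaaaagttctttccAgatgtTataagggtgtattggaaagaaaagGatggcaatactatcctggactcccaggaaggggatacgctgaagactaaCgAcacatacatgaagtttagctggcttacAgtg
Tcrg-C2: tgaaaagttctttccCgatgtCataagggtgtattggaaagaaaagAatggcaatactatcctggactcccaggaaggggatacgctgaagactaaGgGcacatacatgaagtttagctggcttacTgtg
Tcrg-C4: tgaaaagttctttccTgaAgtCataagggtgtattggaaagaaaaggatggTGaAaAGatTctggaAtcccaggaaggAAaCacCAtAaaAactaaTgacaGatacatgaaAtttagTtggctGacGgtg

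Over the whole first exon of 330 bases, *Tcrg-C1* and *Tcrg-C2* differed at 9 bases (97.3% identity), *Tcrg-C1* and *Tcrg-C4* at 59 (82.1%), and *Tcrg-C2* and *Tcrg-C4* at 61 (81.5%). Of the 469 stretches of 50 bases in the *Tcrg-C1* transcript, 63 (13.4%) are also in *Tcrg-C2*, and none of those of *Tcrg-C4* is in either. The split of counts between *Tcrg-C1* and *Tcrg-C2* is therefore uncertain where fragments fall in the shared bases, while *Tcrg-C4* shares no such stretch with them.

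*Tcrg-C1* (gene ID 107573, chr13:19214103-19216618 of GRCm38), the constant region of the cluster that holds *Tcrg-V4*, was lower in CD4+Lrig1+ cells in both sets. It had 5.28 CPM in CD4+Lrig1- and 1.33 CPM in CD4+Lrig1+ cells of set 1 (253 and 69 counts), and 5.48 and 2.87 CPM in set 2 (296 and 165 counts). Its CD4+Lrig1- libraries were close to each other, both above both CD4+Lrig1+ libraries, and the CD4+Lrig1+ library of set 2 lay nearer to them than that of set 1. On the log2 scale, with a prior count of 2, the CD4+Lrig1+ level relative to CD4+Lrig1- was -1.96 in set 1 and -0.92 in set 2. *Tcrg-C2* (gene ID 107574, chr13:19305060-19307551, minus strand), which serves a cluster of opposite orientation, had 5.20 and 1.04 CPM in CD4+Lrig1- and CD4+Lrig1+ cells of set 1, and 6.22 and 1.57 CPM in set 2. Here too the groups did not overlap, and the log2 ratio was -2.28 in set 1 and -1.96 in set 2. *Tcrg-C4* (gene ID 107576, chr13:19344558-19352343), the constant region joined to *Tcrg-V1*, had 3.88 CPM in CD4+Lrig1- and 1.60 CPM in CD4+Lrig1+ cells of set 1, and 5.55 and 2.11 CPM in set 2. Both CD4+Lrig1- libraries were above both CD4+Lrig1+ libraries, with log2 ratios of -1.26 and -1.38. *Tcrg-C3*, the remaining constant gene, was listed at 0 counts in all 4 libraries.

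In bulk RNA, fewer cells of a type and less RNA per cell cannot be told apart, and this holds for each gene below as well. The summed level of the γ constant genes fell from 14.4 CPM in CD4+Lrig1- to 3.96 CPM in CD4+Lrig1+ cells of set 1, and from 17.3 to 6.55 CPM in set 2. Per length, the γ constant genes together stood at 1.38% of the β constant genes (*Trbc1* and *Trbc2*) in CD4+Lrig1- cells of set 1 and at 0.344% in CD4+Lrig1+ cells, and at 0.818% and 0.298% in set 2. The β constant genes themselves had 1895 and 2067 FPKM in set 1, and 3363 and 3723 FPKM in set 2. So γ transcripts were a small part of the TCR transcripts in every library, and the share was smaller in the CD4+Lrig1+ library of each set. The mix of the 3 expressed constant genes also varied. *Tcrg-C2* made up 37.9% and 37.8% of the γ constant FPKM in the CD4+Lrig1- libraries of set 1 and set 2, and 27.8% and 25.1% in the CD4+Lrig1+ libraries. *Tcrg-C1* made up 37.3% and 32.4% in the CD4+Lrig1- libraries, and 34.6% and 44.9% in the CD4+Lrig1+ libraries, so its share went down in set 1 and up in set 2. The shares of *Tcrg-C1* and *Tcrg-C2* depend on the uncertain split of counts between these genes.

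*Tcrg-V4* (gene ID 21638, chr13:19184981-19185506), a variable segment used by γδ T cells of lymphoid tissue, IL-17 producers among them, had the lowest log2 ratios of the 8 genes in both sets. It had 1.67 CPM in CD4+Lrig1- and 0.192 CPM in CD4+Lrig1+ cells of set 1 (80 and 10 counts), and 2.17 and 0.174 CPM in set 2 (117 and 10 counts). The groups were far apart, and libraries of 1 group were close to each other, with means of 1.92 ± 0.350 CPM (SD, n = 2) in CD4+Lrig1- and 0.183 ± 0.0128 CPM (SD, n = 2) in CD4+Lrig1+ cells. The log2 ratio was -2.89 in set 1 and -3.38 in set 2. By library totals, *Tcrg-V4* was 8.63-fold higher in CD4+Lrig1- cells in set 1 (95% exact interval 4.46 to 18.7) and 11.6-fold in set 2 (6.08 to 24.8). These intervals cover counting error only. For *Tcrg-C1*, *Tcrg-C2* and *Tcrg-C4*, 1 variable segment of the cluster was set beside the constant gene. The *Tcrg-C1* cluster also holds *Tcrg-V5*, *Tcrg-V6* and *Tcrg-V7*, so the share of *Tcrg-V4* is not that of the whole cluster. In CD4+Lrig1+ cells *Tcrg-V6* had 0.333 FPKM in set 1 and 0.386 FPKM in set 2, beside 0.416 and 0.366 FPKM for *Tcrg-V4*. Per length, *Tcrg-V4* stood at 39.1% of *Tcrg-C1* in CD4+Lrig1- and at 16.9% in CD4+Lrig1+ cells of set 1, and at 48.9% and 7.35% in set 2. Each CD4+Lrig1+ value rests on 10 counts of *Tcrg-V4*. *Trgv2*, of the *Tcrg-C2* cluster, stood at 45.8% and 72.5% of *Tcrg-C2* in CD4+Lrig1- and CD4+Lrig1+ cells of set 1, and at 49.9% and 44.0% in set 2. *Tcrg-V1* stood at 32.2% and 41.6% of *Tcrg-C4* in set 1, and at 18.1% and 19.1% in set 2. The share was lower in CD4+Lrig1+ cells in both sets for *Tcrg-V4*, in set 2 for *Trgv2* and in neither set for *Tcrg-V1*. For *Tcrg-V4* and *Trgv2* it also depends on the uncertain split of counts between *Tcrg-C1* and *Tcrg-C2*.

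**Figure D1:**
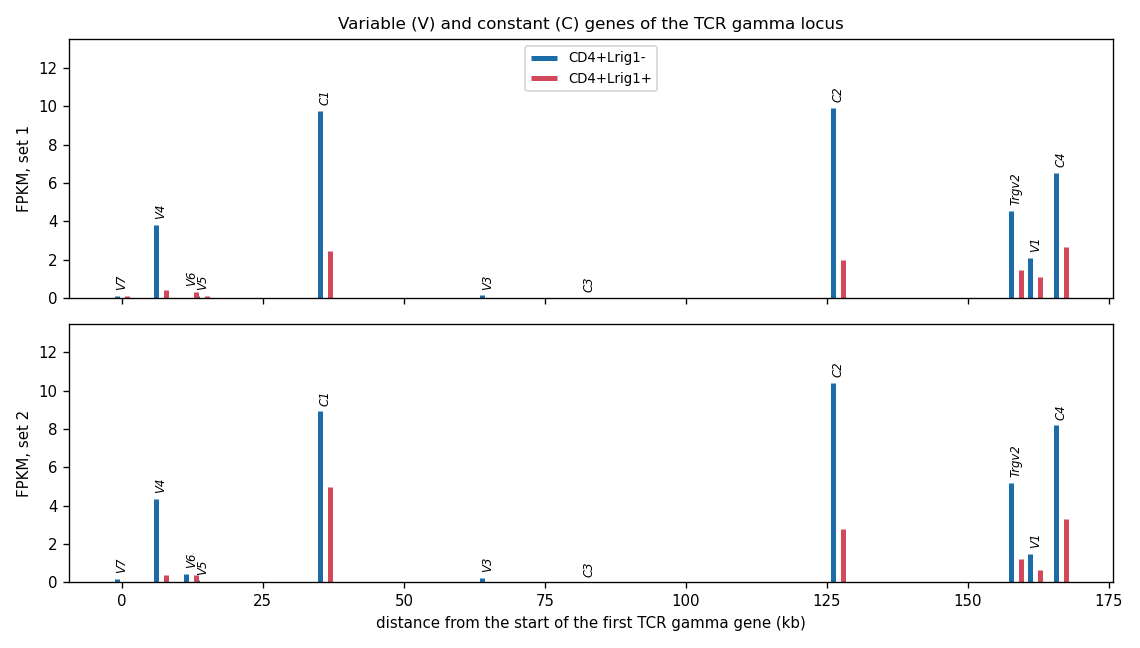
FPKM of the variable (V) and constant (C) genes of the TCR γ locus against their distance in kb from the first γ gene, in set 1 (top) and set 2 (bottom), with CD4+Lrig1- in blue and CD4+Lrig1+ in red; 1 bar is 1 library. *Tcrg-V4*, *Tcrg-C1*, *Tcrg-C2*, *Trgv2*, *Tcrg-V1* and *Tcrg-C4* carry nearly all the signal and are lower in CD4+Lrig1+ cells in both sets, and *Tcrg-C3* is at 0.

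The other γ genes were read as a list that was not picked for how its genes moved. The tables hold 15 γ genes. *Trgv2*, the variable segment joined to *Tcrg-C2*, had 2.15 CPM in CD4+Lrig1- and 0.692 CPM in CD4+Lrig1+ cells of set 1, and 2.80 and 0.627 CPM in set 2. *Tcrg-V1*, named after its values were seen, had 0.773 and 0.404 CPM in set 1, and 0.611 and 0.261 CPM in set 2. In both genes the CD4+Lrig1- libraries were above the CD4+Lrig1+ libraries. Of the 4 J segments, 3 passed the filter on low counts, and all 3 had a log2 ratio below 0 in both sets. The variable segments *Tcrg-V3*, *Tcrg-V5*, *Tcrg-V6* and *Tcrg-V7*, also named after their values were seen, did not pass it. Of these *Tcrg-V6*, the segment of γδ T cells of skin dermis and mucosa, had 0 and 8 counts in CD4+Lrig1- and CD4+Lrig1+ cells of set 1 and 11 and 10 counts in set 2, so it did not share the direction of *Tcrg-V4*.

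*Trdc* (gene ID 100123473, chr14:54142851-54146108), the single constant region of the δ chain, was the only one of the 8 genes besides *Zbtb16* and *Trdv4* whose groups overlapped. It had 8.75 CPM in CD4+Lrig1- and 4.50 CPM in CD4+Lrig1+ cells of set 1 (419 and 234 counts), and 18.9 and 9.49 CPM in set 2 (1021 and 545 counts). Within each set the CD4+Lrig1- library was higher, but the CD4+Lrig1- library of set 1 lay below the CD4+Lrig1+ library of set 2. Its means were 13.8 ± 7.18 CPM (SD, n = 2) in CD4+Lrig1- and 6.99 ± 3.53 CPM (SD, n = 2) in CD4+Lrig1+ cells, so the spread between sets was as large as the difference between groups. The log2 ratio was -0.95 in set 1 and -0.99 in set 2. Between sets, *Trdc* was higher in set 2 by 1.11 on the log2 scale in CD4+Lrig1- and by 1.07 in CD4+Lrig1+ cells. Per length *Trdc* stood at 0.962% of the α constant gene *Trac* in CD4+Lrig1- and 0.530% in CD4+Lrig1+ cells of set 1, and at 1.24% and 0.703% in set 2. *Trdv4* (gene ID 100114901, chr14:54075004-54075515), a variable segment used with the δ constant gene, was close to absent, with 5 and 2 counts in CD4+Lrig1- and CD4+Lrig1+ cells of set 1 and 0 counts in both libraries of set 2. By library totals its ratio in set 1 was 2.70 (95% exact interval 0.441 to 28.3), and no ratio can be given for set 2, so a difference was not detectable at this depth.

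**Figure D2:**
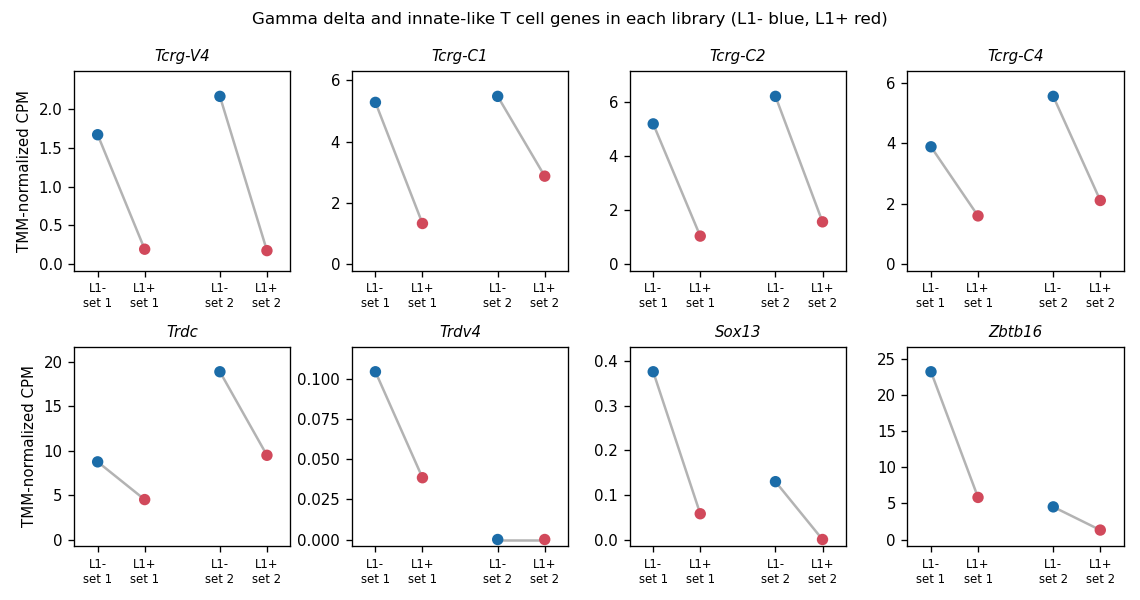
TMM-normalized CPM of each of the 8 genes (1 panel each, linear axes that include 0), with 1 point per library, CD4+Lrig1- (L1-) in blue and CD4+Lrig1+ (L1+) in red, and a line joining the libraries of a set. The CD4+Lrig1+ point is lower in both sets in 7 genes, and *Trdv4* has 0 counts in set 2.

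The other δ variable segments gave small counts. Of 5 such *Trdv* genes, 4 passed the filter and 3 had a log2 ratio below 0 in both sets, with a median of -1.02 in set 1 and -0.42 in set 2. *Trdv2-2*, named after its values were seen, had 1.65 and 0.769 CPM in CD4+Lrig1- and CD4+Lrig1+ cells of set 1, and 1.59 and 0.888 CPM in set 2. Among the 10 segments that α and δ chains share, where αβ T cells also contribute, 7 were below 0 in both sets and 1 was above 0, with medians of -0.24 and -0.20. *Trav14d-3-dv8* had 5.99 and 4.19 CPM in CD4+Lrig1- and CD4+Lrig1+ cells of set 1, and 9.72 and 8.36 CPM in set 2. *Trav4-4-dv10*, of about the same level, went the other way, with 5.87 and 6.36 CPM in set 1, and 8.04 and 8.44 CPM in set 2. The groups of both genes overlapped. *Trav6-7-dv9*, *Trav13-4-dv7* and *Trav21-dv12* followed at 1.29 to 5.39 CPM, and *Trav21-dv12* had a log2 ratio of 0.01 in set 1 and of -0.51 in set 2.

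*Sox13* (gene ID 20668, chr1:133382300-133424459) was near the detection limit and did not pass the filter on low counts. It had 18 counts in CD4+Lrig1- and 3 counts in CD4+Lrig1+ cells of set 1, which is 0.376 and 0.0577 CPM, and 7 and 0 counts in set 2. Both CD4+Lrig1- libraries were above both CD4+Lrig1+ libraries, at very few counts. By library totals the ratio of CD4+Lrig1- to CD4+Lrig1+ cells in set 1 was 6.47 (95% exact interval 1.89 to 34.3). In set 2, with 3 counts in the CD4+Lrig1+ library as the floor, the ratio would be 2.31. That value does not allow for the counting error of the 7 counts. The 95% exact interval in set 2 has a lower limit of 1.43 and no upper limit. All its counts were assigned to 1 of 5 annotated transcripts.

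*Zbtb16* (gene ID 235320, chr9:48651797-48836225) had 23.2 CPM in CD4+Lrig1- and 5.83 CPM in CD4+Lrig1+ cells of set 1 (1112 and 303 counts), and 4.52 and 1.31 CPM in set 2 (244 and 75 counts). Within each set the CD4+Lrig1+ library was lower, with a log2 ratio of -1.99 in set 1 and -1.76 in set 2. Across sets the groups overlapped, because the CD4+Lrig1+ library of set 1 was above the CD4+Lrig1- library of set 2. Between sets *Zbtb16* fell by 2.35 on the log2 scale in CD4+Lrig1- cells from set 1 to set 2 and fell by 2.12 in CD4+Lrig1+ cells, opposite in direction to *Trdc*. The counts were also assigned to different annotated transcripts. In CD4+Lrig1- cells of set 1, 174 counts were given to transcript variant 1 and 938 to transcript variant 2, and in CD4+Lrig1+ cells of set 1 all 303 counts were given to variant 1. In set 2 all counts of both libraries were given to variant 2. The variants are 7610 and 7628 bases long and share an end on the genome, so the ratio above rests on their sum and no difference in variant use is read from the assignment.

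**Figure D3:**
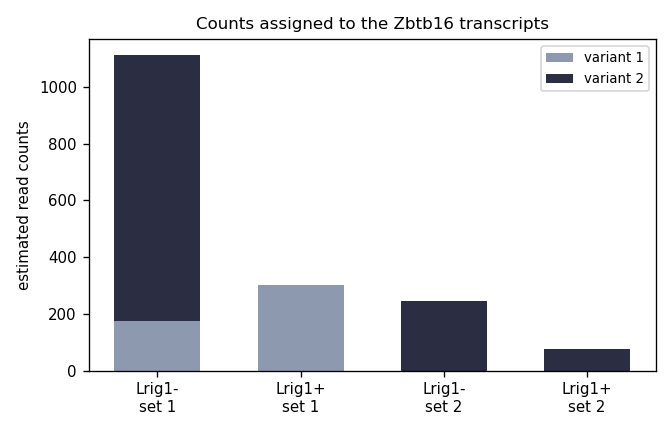
Estimated read counts assigned to the annotated *Zbtb16* transcript variants 1 and 2 in each library, stacked so that the bar height is the gene sum. The sum is lower in the CD4+Lrig1+ library of each set (303 against 1112, and 75 against 244), while the variant that carries it differs between libraries.

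As a group, 7 of the 8 genes had a log2 ratio below 0 in both sets and none had one above 0 in both. The same direction in both sets was seen in 41.3% of the 16123 genes that passed the filter. A ratio at least 2-fold lower in both sets was seen in 5 of the 8 genes (*Tcrg-V4*, *Tcrg-C2*, *Tcrg-C4*, *Sox13* and *Zbtb16*), against 3.01% of genes tested. Both CD4+Lrig1- libraries were above both CD4+Lrig1+ libraries in 5 of the 8 (*Tcrg-V4*, *Tcrg-C1*, *Tcrg-C2*, *Tcrg-C4* and *Sox13*), against 11.8% of genes tested. Since the genes were chosen with this contrast in view, nothing is read from these shares. The filter kept 6 of the 8, without *Trdv4* and *Sox13*, while the percentages cover only genes that passed it. Of these 6, all 6 were below 0 in both sets and 4 were at least 2-fold lower in both. Both CD4+Lrig1- libraries were above both CD4+Lrig1+ libraries in 4 of the 6. The median log2 ratio of the 8 genes was -1.98 in set 1 and -1.57 in set 2, against 0.01 and -0.06 over all genes tested. With *Sox13* at the ratio from its floor and *Trdv4* left out in set 2, on library totals, the medians were -1.98 over 8 genes and -1.30 over 7. TMM in place of library totals moved the median ratio over all genes by -0.01 in set 1 and by -0.10 in set 2. Ordered by FPKM in CD4+Lrig1- cells of set 1, *Tcrg-C2* (9.92) and *Tcrg-C1* (9.76) were followed by *Trdc* (7.60), *Tcrg-C4* (6.53), *Tcrg-V4* (3.82), *Zbtb16* (2.92), *Trdv4* (0.246) and *Sox13* (0.0928). In set 2 *Trdc* came first with 14.4 FPKM and *Zbtb16* had 0.498, so the order of these genes depended on the set.

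**Figure D4:**
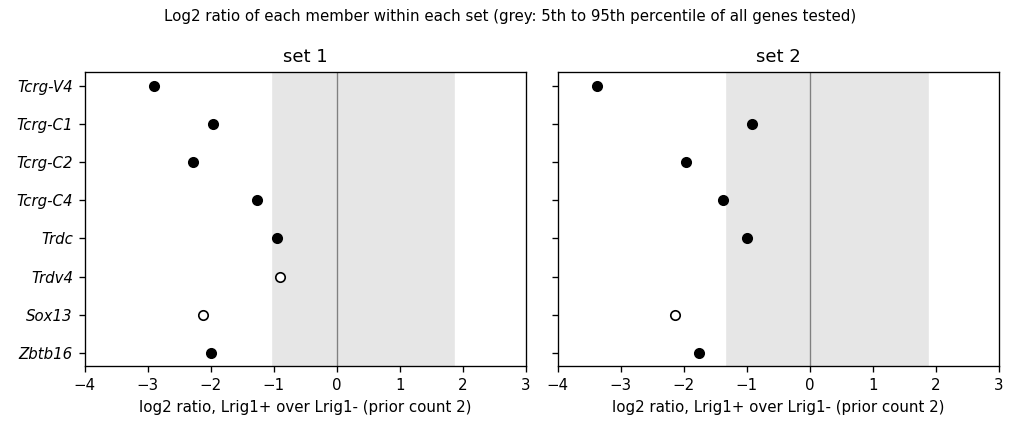
Log2 ratio between the groups (CD4+Lrig1+ relative to CD4+Lrig1-, prior count 2) for each gene in set 1 (left) and set 2 (right), with open points where the CD4+Lrig1+ library had 3 counts or fewer and the 5th to 95th percentile of all genes tested in grey (-1.01 to 1.86 in set 1, -1.32 to 1.87 in set 2). *Trdv4* has no point in set 2, where both libraries had 0 counts.

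The profiles of *Trdc*, *Sox13* and *Zbtb16* over the 4 libraries were compared with those of all genes tested with a mean of at least 1 CPM, by the Euclidean distance of their centred log2 CPM. Before the log, 0.05 CPM was added to every value. The 5 genes nearest to *Trdc* were *Cd7* (0.0903 log2 units), *Mettl9* (0.160), *Xcl1* (0.175), *Gm19585* and *Selenop* (both 0.190). *Cd7* encodes a surface protein of T and NK cells, and *Xcl1* the chemokine lymphotactin. The nearest to *Sox13* were *Ccdc102a* (0.224), *Tbc1d8*, *P4ha2*, *Adgrg3* and *Sema4a*, and those nearest to *Zbtb16* were *Zfp366* (0.285), *Appl2*, *Adamts14*, *Hs3st3a1* and *Rapgef4*. *Sox13* did not pass the filter on low counts, and its value in CD4+Lrig1+ cells of set 2, at 0 counts, is set by the added 0.05 CPM. The genes nearest to *Sox13* therefore depend on that setting. With 4 libraries all these distances describe the libraries and no more.

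The genes that work with these receptors and factors were read from lists written from textbook knowledge with earlier results of these data known. In edgeR's quasi-likelihood test without a term for the table, 0% of the 16123 genes tested passed an adjusted p of 0.05, and neither did any listed gene, while 674 genes were higher and 227 lower in CD4+Lrig1+ cells at an unadjusted p under 0.05. The Wald test of DESeq2 called 263 genes higher and 50 lower. When a term for the table was added to the model (the table block), 14.6% of genes tested were called higher and 12.8% lower. That fit leaves 1 residual degree of freedom among the libraries, against 2 without the block. The words rose and fell below refer to edgeR with the table block, the call being absent without it.

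Of the 29 other TCR γ and δ genes, 20 passed the filter, 16 of them were below 0 in both sets and 1 above 0, with medians of -0.59 in set 1 and -0.58 in set 2. Of all genes tested, 41.3% were below 0 in both sets. Among the 20 are the 10 segments that α and δ chains share. Only *Trgv2* was called and fell (edgeR with table block adjusted p = 0.00652, DESeq2 adjusted p = 0.378). Its log2 ratio was -1.58 in set 1 and -2.09 in set 2. The share called lower, 1 of 20, was not above the 12.8% of all genes tested. Several of the 20 had few counts in every library, which limits such a call, so nothing is read from this share.

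The type 17 γδ list moved in both directions. Of its 18 genes, 16 passed the filter, and 4 rose and 7 fell. *Maf*, a transcription factor needed for IL-17 producing γδ T cells and used by other T cells, rose from 39.2 to 127 CPM in set 1 and from 19.3 to 78.1 CPM in set 2 (edgeR with table block adjusted p = 2.86e-05). *Ccr6*, a chemokine receptor of type 17 cells and of regulatory T cells, rose from 7.29 to 47.6 CPM in set 1 and from 13 to 42.4 CPM in set 2. *Ccr2*, a chemokine receptor of effector T cells and monocytes, fell from 28.7 to 7.75 CPM in set 1 and from 45.1 to 11.4 CPM in set 2. *Rora*, a nuclear receptor of the type 17 programme, had 44.7 and 53.4 CPM in set 1, and 18.3 and 27.2 CPM in set 2, so its groups overlapped although it rose by the block (adjusted p = 0.0243). *Sox4*, an HMG box factor, fell (adjusted p = 0.0499), and the kinase gene *Blk*, which B cells also express, was not called, with log2 ratios of -0.10 and -1.06. The scavenger receptor genes *Cd163l1* and *5830411N06Rik*, which mark γδ T cells, were named after their values were seen. *Cd163l1* fell from 2.67 to 0.750 CPM in set 1 and from 0.592 to 0 CPM in set 2. *5830411N06Rik* fell from 2.67 to 1.12 CPM in set 1 and from 1.59 to 0.522 CPM in set 2. The cytokine gene *Il17a*, also named after its values were seen, had 5 counts in CD4+Lrig1- cells of set 1 and 0 in the other 3 libraries.

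Of the 13 genes of the IFN-γ and cytotoxic list, all passed the filter, and 4 rose and 9 fell, with medians of -0.71 in set 1 and -0.78 in set 2. Of all genes tested, 14.6% were called higher and 12.8% lower. *Ccl5*, a chemokine of effector lymphocytes, fell from 40.7 to 10.8 CPM in set 1 and from 89.2 to 20.5 CPM in set 2 (edgeR with table block adjusted p = 1.92e-05). *Prf1*, which encodes perforin, fell from 34.5 to 9.92 CPM and from 69.3 to 15.0 CPM. *Tbx21*, the gene of T-bet, fell less, from 21.4 to 14.0 CPM and from 27.1 to 18.4 CPM. *Nkg7*, a cytotoxic granule gene, fell with log2 ratios of -0.23 and -0.56. The 4 that rose were *Eomes*, a T-box factor related to T-bet, *Il2rb*, a receptor chain for IL-2 and IL-15, the costimulatory receptor gene *Cd27*, and *Ifng*, which was named after its values were seen. *Il2rb* rose from 287 to 1030.4 CPM in set 1 and from 246 to 1059.9 CPM in set 2. *Eomes* rose from 4.20 to 24.1 CPM and from 9.18 to 41.3 CPM. So the list as a whole moved in both directions. Its granule and receptor genes *Gzma*, *Gzmb*, *Klrd1* and *Klrk1*, named after their values were seen, fell like *Prf1* and *Nkg7*.

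The 20 genes of the NKT and MAIT list also went both ways, 6 up and 8 down, with *Trav11* and *Trav11d* counted separately among those down. *Klrb1c*, the gene of the NK1.1 surface marker, fell from 21.9 to 6.29 CPM in set 1 and from 46.7 to 13.6 CPM in set 2 (edgeR with table block adjusted p = 3.31e-05). *Trav11* and *Trav11d*, copies of the variable segment of the invariant NKT receptor, were named after their values were seen. They had nearly identical values, with 4.26 and 1.25 CPM in set 1 for both, and a log2 ratio for *Trav11* of -1.74 in set 1 and -2.45 in set 2. Whether these copies share reads is not known, and they are read as 1 gene. *Trav1* and *Traj33*, the segments of the MAIT receptor, and *Traj18*, the joining segment of the NKT receptor, did not pass the test. *Izumo1r*, which encodes folate receptor 4 of regulatory T cells, rose from 105 to 539.95 CPM and from 142 to 820.3 CPM. *Slamf6* and *Sh2d1a*, of the SLAM signalling route that innate-like T cells and other T cells use, rose as well, with log2 ratios for *Slamf6* of 0.70 and 0.95. The changes of the kinase gene *Fyn*, which rose (0.34 and 0.23), and of the IL-18 receptor gene *Il18r1*, which fell (-0.17 and -0.36), were small.

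**Figure D5:**
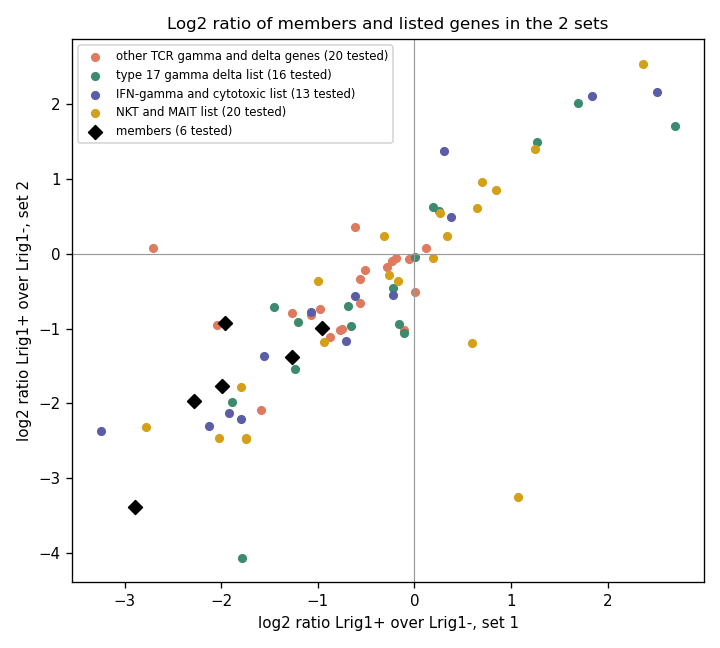
Log2 ratio between the groups (CD4+Lrig1+ relative to CD4+Lrig1-) in set 1 (horizontal) and set 2 (vertical) for the 6 of the 8 genes that passed the filter (black diamonds) and for 4 gene lists, 1 point per gene tested. All diamonds lie below 0 on both axes, with *Tcrg-V4* lowest (-2.89, -3.38), while the type 17, cytotoxic and NKT or MAIT lists have genes on both sides of 0.

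Markers of other cell types that a CD4 gate could hold moved with the sets and partly with the groups. Of the B cell markers, 5 are reported, and they summed to 37.8 and 42 CPM in CD4+Lrig1- and CD4+Lrig1+ cells of set 1, and to 550.0 and 281 CPM in set 2. Of these, *Ms4a1* and *Blnk* fell, and *Cd79a*, *Cd79b* and *Pax5* were not called. *Cd79a*, which encodes part of the B cell receptor complex, had 11.2 and 11.0 CPM in set 1, and 182 and 87.5 CPM in set 2. The 7 NK cell markers summed to 29.7 and 31.7 CPM in set 1 and to 73.0 and 61.7 CPM in set 2. Of them, 6 were below 0 in both sets and *Eomes* was above 0. Without *Eomes*, a choice made after its values were seen, the other 6 summed to 25.5 and 7.56 CPM in set 1. In set 2 they summed to 63.8 and 20.4 CPM, so the sum was lower in CD4+Lrig1+ cells in both sets. Most of it was *Klrb1c*, also a gene of the NKT and MAIT list. *Klrb1c* had 21.9 and 6.29 CPM in set 1, and 46.7 and 13.6 CPM in set 2. *Klra4*, *Klra8* and *Klri2*, receptors of NK cells, fell, with log2 ratios for *Klri2* of -2.79 and -1.29. The defining NK cell gene *Ncr1* had 0.877 and 0.577 CPM in set 1, and 4.65 and 1.76 CPM in set 2. The CD8 genes *Cd8a* and *Cd8b1* summed to 19.5 and 14.1 CPM in set 1, and to 97.3 and 51.6 CPM in set 2. The 5 myeloid markers summed to 29.3 and 31.2 CPM in set 1, and to 154 CPM in both libraries of set 2. *Csf1r*, the receptor for macrophage colony-stimulating factor, rose and the integrin gene *Itgam* fell, while *Lyz2*, *Cd14* and *Adgre1* were not called. None of the reported B cell, NK cell, CD8 or myeloid markers was at 0 in any library. The part of these cells in the lower γ, δ and *Zbtb16* levels was not tested.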

How the data were processed

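RNA from CD4+Lrig1+ and CD4+Lrig1- T cells was sequenced with a stranded mRNA kit. Per the study's methods and processing notes, the authors trimmed reads with Trimmomatic 0.38, aligned them with HISAT2 2.1.0 (Bowtie2 2.3.4.1 is also named) and quantified transcripts with StringTie 2.1.3b. The deposited estimated counts are per transcript, whole numbers and not normalized. The deposited FPKM values were scaled by the authors for transcript length and mapped fragments. Of 6 samples, 4 libraries were used. Another 6 columns with values of single samples, in a further table, were left out because their names give no Lrig1 group.

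Estimated counts were summed per gene over 129299 transcripts. All 8 genes matched RefSeq genes of GRCm38 by gene ID and position (RefSeq symbols *Trgv4*, *Trgc1*, *Trgc2* and *Trgc4* for the γ genes). In R 4.3.3, 16123 genes passed filterByExpr of edgeR 4.0.16, were TMM normalized and were tested by the quasi-likelihood test with Benjamini-Hochberg adjustment (threshold 0.05). Log2 ratios used a prior count of 2. Alternatives were DESeq2 1.42.0 (size factors and Wald test), library totals, edgeR's exact test, other count filters, a prior count of 0.5, limma 3.58.1 with pseudocounts of 1 and 0.1 on log2 FPKM, a threshold of 0.1, the table of each library as a block, and leaving out each library. The fits were tested on simulated counts that held no difference between sets. That test therefore does not show how the fits perform on these libraries, whose sets differ. The genes and lists were chosen with earlier results of these data known. Named were the 8 genes, the up to 6 most abundant genes of each of 11 lists, the 5 genes nearest to *Trdc*, *Sox13* and *Zbtb16*, and *Lrig1* and *Foxp3* as a check of the sort. *Foxp3* had 589 and 48.9 CPM in CD4+Lrig1+ and CD4+Lrig1- cells of set 1, and 615 and 30.7 CPM in set 2. Other names were chosen after their values were seen, as said beside them. A gene of the lists is not reported here.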

Additional observations from a re-analysis of the deposited data

How the results depend on the processing

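The number of genes called, 0 in either direction by edgeR's quasi-likelihood test, depended on the model. The Wald test of DESeq2 called 263 higher and 50 lower, edgeR's exact test 196 and 17, and the table block 2358 and 2056. Leaving out each library gave 0 to 44 genes called higher, 44 when the CD4+Lrig1- library of set 1 was left out and 5 when its CD4+Lrig1+ library was, and 0 to 0 called lower. In these fits a group with 1 library is assumed to vary like the other. DESeq2's size factors, library totals, other count filters, limma and a threshold of 0.1 gave 0 in both directions. Of the 123 listed genes tested, the table block called 27 higher and 41 lower, and DESeq2 6 and 6. Why these counts differ was not tested. Of the 8 genes described, 7 were lower in both sets under every scaling, prior count and pseudocount tried. Their median log2 ratio in set 1 and set 2 became -1.56 and -1.06 on log2(FPKM + 0.1), and -1.11 and -0.77 on log2(FPKM + 1), since a pseudocount pulls low genes toward 0. Of 80 values of single genes under these alternatives, 26 moved by more than their spread and none changed direction. The spread here is the SD of the gene's main log2 ratios in set 1 and set 2. Where the sets were alike, as for *Trdc*, a small shift therefore counts as moved. The ratio of *Trdv4* in set 2, with 0 counts in both libraries, could not move. No paired analysis was possible because the columns carry no replicate numbers, as far as pairing by replicate number goes. The table block and the ratios within a set pair the libraries by table. At this depth *Trdv4* and *Sox13* rest on at most 18 counts a library.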

Other observations

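Regulators of the innate-like lineage outside the 8 genes also differed, in both directions. Of 25 such genes, all tested, 10 rose and 7 fell in CD4+Lrig1+ cells by edgeR with the table block, and none was called without it. *Lef1*, a factor of naive T cells, fell from 619 to 282 CPM in set 1 and from 760.4 to 243 CPM in set 2 (edgeR with table block adjusted p = 0.000356). *Tcf7*, which encodes TCF1, fell from 1713 to 1094 CPM and from 2217.5 to 1306 CPM. *Cul3*, a ubiquitin ligase subunit that works with PLZF, fell from 182 to 147 CPM and from 208 to 169 CPM. *Gata3*, a factor of type 2 helper T cells, NKT cells and regulatory T cells, rose from 80.5 to 126 CPM and from 63.5 to 96.7 CPM. *Zbtb7b*, the ThPOK gene of the CD4 lineage, was not called, with 349 and 299.7 CPM in set 1 and 204 and 177 CPM in set 2. *Bcl11b* and *Notch1*, both needed early in the T lineage, were not called either, with log2 ratios for *Notch1* of 0.14 and -0.01. Named after their values were seen, *Egr2*, a factor upstream of PLZF in NKT cells, rose from 16.9 to 56.2 CPM in set 1 and from 16.4 to 60.6 CPM in set 2, and *Id2*, an E protein inhibitor, fell from 126 to 64.7 CPM and from 154 to 73.3 CPM.

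Innate lymphoid cell markers moved in both directions. Of 8 genes, 4 passed the filter, of which *Il1rl1*, *Klrg1* and *Areg* rose and *Kit* fell by edgeR with the table block. *Il1rl1*, the IL-33 receptor of type 2 innate lymphoid cells and of some regulatory T cells, rose from 6.2 to 16.4 CPM in set 1 and from 4.39 to 14.2 CPM in set 2. *Kit*, the stem cell factor receptor, fell from 9.06 to 1.83 CPM and from 6.94 to 2.11 CPM. *Arg1* and *Il13* did not pass the filter, with at most 0.241 CPM in any library.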
